A study of Mus musculus with 7 samples.

Results

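The 9 genes described here encode the transcription factors Jun, Junb, Jund, Fos, Fosb, Fosl1, Fosl2 and Atf3, which form or join the AP-1 complex, and Egr1, a zinc finger factor induced by the same signals. They were chosen by name as AP-1 and immediate early factors, and all 9 were measured among 29686 genes in all. RNA-seq was performed on 7 mouse cell populations taken around a conversion of fibroblasts into neural stem cells (NSC) by OSKM, the reprogramming factors Oct4, Sox2, Klf4 and Myc. Each population had 1 library, so no value has a replicate error and no difference has a test. Mouse embryonic fibroblasts (MEF) and induced pluripotent stem cells (iPSC) were of strain A12, with the genotype Mbd3 flox/-. The day 6 cells and both OSKM NSC populations were of B6/129 background and carried Rosa26-TdTomato and Col1a-OSKM. In these cells a Nanog-CreER driver turns on tdTomato in cells that express Nanog while 4OHT is given, and doxycycline turns on OSKM. The day 6 cells were sorted as tdTomato positive after doxycycline and 4OHT given over days 1 to 6, in medium with 5% fetal bovine serum and 10% serum replacement. The OSKM NSC were picked mechanically and grown without feeders, and the Tomato-positive and Tomato-negative populations were kept apart. Brain NSC were primary cells of BDF2 embryos, at E12.5 (embryonic day) by the sample description although the shared protocol text gives a later day, grown with bFGF and EGF, each at 20 ng/mL. The embryonic stem cell (ESC) line was v6.5, grown on MEF feeders, and the label of the iPSC leaves their feeders uncertain. Strain, genotype, medium, feeders and handling, such as sorting or picking, differ together with cell type and cannot be told apart from it.

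AP-1 is a dimer of bZIP proteins, in which a basic region grips DNA and a leucine zipper holds the pair together. Jun proteins can pair with each other or with Fos proteins, whereas Fos proteins need a Jun partner, and the dimers bind the element TGACTCA. Most of these genes are immediate early genes: serum, growth factors and stress switch them on within minutes through MAP kinases and serum response factor, without new protein synthesis. In fibroblasts AP-1 binds many enhancers of the matrix and adhesion program, and Egr1 marks mitogen signalling in fibroblasts and neural cells.

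Exon 3 of the Fos family is shown because it has the same length in all 4 genes and was their most covered exon in most libraries. In Fos, Fosb, Fosl1 and Fosl2 it is 108 bases long, is entirely coding and carries the basic region that contacts DNA. Capitals mark the 62 of 108 bases (57.4%) that were the same in all 4 genes, by position and with no gaps. Sequences were taken from the GENCODE M21 transcripts (GRCm38, the same build as mm10) and read 5′ to 3′ on the coding strand.
Fos (chr12:85475592-85475699, plus strand): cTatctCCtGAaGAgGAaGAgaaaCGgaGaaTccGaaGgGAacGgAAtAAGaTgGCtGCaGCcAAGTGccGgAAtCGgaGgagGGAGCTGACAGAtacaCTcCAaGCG
Fosb (chr7:19306559-19306666, minus strand): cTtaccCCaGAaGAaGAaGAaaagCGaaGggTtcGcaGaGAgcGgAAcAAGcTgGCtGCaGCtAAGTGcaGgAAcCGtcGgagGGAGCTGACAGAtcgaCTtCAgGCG
Fosl1 (chr19:5454413-5454520, plus strand): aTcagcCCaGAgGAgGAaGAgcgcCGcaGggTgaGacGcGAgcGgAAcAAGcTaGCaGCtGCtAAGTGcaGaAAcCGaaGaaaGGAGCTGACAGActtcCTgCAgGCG
Fosl2 (chr5:32150421-32150528, plus strand): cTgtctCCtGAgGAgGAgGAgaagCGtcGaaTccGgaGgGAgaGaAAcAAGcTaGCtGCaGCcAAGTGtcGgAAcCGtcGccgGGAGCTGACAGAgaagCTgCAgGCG

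Pairwise identity of exon 3 was highest between Fos and Fosl2, at 84 of 108 bases (77.8%), and lowest for Fosl1 with Fos and with Fosl2, at 72 of 108 bases (66.7%). Reads from this exon differ between the genes at many positions.

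The sequence before the annotated RefSeq start is shown for the first members to be induced, Fos and Jun, and for Junb, the member furthest apart between iPSC and ESC. RefSeq (GRCm38.p6) gave a promoter for 7 of the 9 members. The motifs searched on both strands in the 250 bases before each RefSeq start were TGACTCA, TGACGTCA, TGACATCA and TGACG, the last of which lies within TGACGTCA. Capitals mark each match.
Fos (chr12:85473640-85473889, plus strand): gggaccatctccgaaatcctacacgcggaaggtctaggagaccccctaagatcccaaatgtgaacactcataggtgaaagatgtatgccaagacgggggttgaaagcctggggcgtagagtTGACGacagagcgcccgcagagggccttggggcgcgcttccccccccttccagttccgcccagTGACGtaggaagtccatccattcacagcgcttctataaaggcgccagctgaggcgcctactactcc
Jun (chr4:95052223-95052472, minus strand): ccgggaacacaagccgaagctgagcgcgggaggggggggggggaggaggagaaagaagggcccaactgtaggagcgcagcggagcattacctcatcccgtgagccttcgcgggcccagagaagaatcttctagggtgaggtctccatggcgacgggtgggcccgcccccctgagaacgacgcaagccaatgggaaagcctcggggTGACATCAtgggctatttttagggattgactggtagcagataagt
Junb (chr8:84978749-84978998, minus strand): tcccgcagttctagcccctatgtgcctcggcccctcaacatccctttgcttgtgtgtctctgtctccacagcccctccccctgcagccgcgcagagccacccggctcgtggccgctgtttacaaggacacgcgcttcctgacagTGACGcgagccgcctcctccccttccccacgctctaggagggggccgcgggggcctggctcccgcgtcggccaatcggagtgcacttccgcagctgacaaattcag

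Jun held TGACATCA with its first base 45 bases before the start, a motif present in 2.93% of 32851 promoters of the same length. Fos held TGACG at 129 and 66 bases before the start, and Junb at 106 bases before it. Fosb held TGACG at 60 bases before the start and Atf3 its reverse, CGTCA, at 7 bases before it. TGACG or its reverse was present in 17.8% of promoters. None of the 7 windows held TGACTCA, found in 4.46% of promoters, or TGACGTCA, found in 1.55%. The Atf3 window reaches 7 bases into exon 1, where its match lies, and the Fosb window 6 bases. The RefSeq start of Junb lies 30 bases upstream of its exon. The RefSeq starts of Jund and Fosl2 lie further from the start of the first exon measured here. That of Jund lies 1210 bases upstream of its exon, and all 250 bases of the Fosl2 window lie inside exon 1, so these windows are not described further.

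The deposited values were reads per kilobase of exon per megaread (RPKM) for each exon, and the level of a gene was the mean over its exons weighted by exon length. The steps between the values put the depth at 19 to 58 M (megareads), lowest in the Tomato-positive OSKM NSC library. In the day 6 library, 8.82% of the summed exon reads lay in Gm42418, a gene model over ribosomal RNA, against 0.0258% to 0.0657% in the other 6 libraries. Levels also moved with base composition: the median log2 ratio of ESC to MEF was 0.49 in the decile of genes with the lowest GC content and -0.75 in the decile with the highest. For day 6 against MEF the same medians were 0.07 and -0.68. Jund, Junb and Fosl1 lie in the decile with the highest GC content. The label of each population was checked against marker genes. All 8 neural stem cell markers reached 2 RPKM in the 3 NSC libraries, and all 7 pluripotency markers did so on day 6 and in iPSC and ESC. All 11 fibroblast markers reached 2 RPKM in MEF, but so did all 11 in Tomato-positive OSKM NSC and in ESC. The MEF library also carried all 10 myeloid markers, at a summed 3544 RPKM against 10.1 to 169 RPKM elsewhere, and all 4 muscle markers, at 263 RPKM. Endothelial markers summed to 0.662 to 153 RPKM and neuron markers to 6.74 to 84.4 RPKM over the 7 libraries. Most of each highest sum was a single gene, Pecam1 at 138 RPKM in ESC and Tubb3 at 84.1 RPKM in iPSC. In bulk RNA, fewer cells of a type and less RNA per cell cannot be told apart.

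Among the Jun genes, Jun was highest in brain NSC, Junb in MEF and Jund on day 6. Jun (ENSMUSG00000052684, chr4:95049034-95052222, minus strand, a gene with a single exon), the main DNA-binding subunit of AP-1, stood at 32.7 RPKM in MEF, at 23.8 in day 6 cells, at 48.6 and 40.9 in Tomato-positive and Tomato-negative OSKM NSC, at 100.1 in brain NSC, at 3.94 in iPSC and at 4.59 in ESC. Brain NSC stood above all other libraries and both pluripotent lines far below them, with a 25.4-fold span. The neighbours from Tomato-positive OSKM NSC down to day 6 each lay within 1.5-fold of the next. The antisense gene Junos, which has no value of its own here, lies over 232 bases of the Jun exon. Its part in the Jun level was not tested. Junb (ENSMUSG00000052837, measured over chr8:84976910-84978718, minus strand), a weaker activator that can also restrain Jun, stood at 40.0 RPKM in MEF, at 22.0 in day 6 cells, at 7.35 and 2.50 in Tomato-positive and Tomato-negative OSKM NSC, at 2.03 in brain NSC, at 17.4 in iPSC and at 1.96 in ESC. MEF, day 6 and iPSC were high, and Tomato-negative OSKM NSC, brain NSC and ESC low. The pluripotent lines, which were alike for Jun, were thus 8.86-fold apart for Junb. Jund (ENSMUSG00000071076, chr8:70698949-70700616, plus strand), the member usually present without a stimulus, stood at 16.6 RPKM in MEF, at 40.7 in day 6 cells, at 16.7 and 13.3 in Tomato-positive and Tomato-negative OSKM NSC, at 12.7 in brain NSC, at 25.7 in iPSC and at 8.73 in ESC. Its 4.66-fold span was the smallest of the 9 members.

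The Jund values carry a limit of position. A stretch of 543 bases of its exon, with 71.8% GC, also belongs to the antisense gene model Gm11175, and whether the counting used strand is not given in the sources used here. That stretch is 32.6% of the exon and held 43.3% of its reads in MEF, 50% in day 6 cells, 42.3% and 33.1% in Tomato-positive and Tomato-negative OSKM NSC, 22.0% of them in brain NSC, 65.4% of them in iPSC and 2.51% of them in ESC. Day 6 and iPSC, where Jund was highest, thus had the largest share of reads in the shared stretch, and ESC, where it was lowest, had 15 of 597 reads there. Over the other 1125 bases, a subset chosen after the values were seen, Jund stood at 13.9 RPKM in MEF, at 30.2 in day 6 cells, at 14.3 and 13.2 in Tomato-positive and Tomato-negative OSKM NSC, at 14.7 in brain NSC, at 13.2 in iPSC and at 12.6 in ESC. Day 6 was again highest, while the other 6 libraries lay between 12.6 and 14.7 RPKM. Another annotated exon of Gm11175, which has no value of its own here, lies within those bases. The part of the antisense model or of GC content in the Jund level was not tested.

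Among the Fos genes, Fos, Fosb and Fosl2 were highest in MEF, and Fosl1 on day 6. Fos (ENSMUSG00000021250, chr12:85473890-85477273, plus strand), the prototype immediate early gene, stood at 79.4 RPKM in MEF, at 29.8 in day 6 cells, at 8.11 and 9.19 in Tomato-positive and Tomato-negative OSKM NSC, at 22.3 in brain NSC, at 10.2 in iPSC and at 8.69 in ESC. MEF stood 2.66-fold above day 6, the next library, and the 4 lowest libraries lay within 1.5-fold of their neighbours. Fosl2 (ENSMUSG00000029135, chr5:32135801-32157842, plus strand), or Fra-2, which lacks the strong activation domain of Fos, stood at 49.6 RPKM in MEF, at 9.33 in day 6 cells, at 6.17 and 4.12 in Tomato-positive and Tomato-negative OSKM NSC, at 8.90 in brain NSC, at 1.60 in iPSC and at 4.38 in ESC. Only MEF was high, 5.32-fold above day 6, and the 31.1-fold span was the widest of the AP-1 genes. Fosb (ENSMUSG00000003545, chr7:19302696-19310051, minus strand), known for its long-lived ΔFosB form in neurons, stood at 3.05 RPKM in MEF, at 1.45 in day 6 cells, at 0.196 and 0.140 in Tomato-positive and Tomato-negative OSKM NSC, at 0.148 in brain NSC, at 0.377 in iPSC and at 0.280 in ESC. It passed 2 RPKM in MEF alone, and outside MEF and day 6 its longest exon held 10 to 79 reads.

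Fosl1 (ENSMUSG00000024912, chr19:5447547-5455946, plus strand), or Fra-1, a late AP-1 member tied to invasion and mesenchymal states, stood at 7.12 RPKM in MEF, at 22.6 in day 6 cells, at 7.12 and 4.28 in Tomato-positive and Tomato-negative OSKM NSC, at 2.29 in brain NSC, at 0.941 in iPSC and at 1.30 in ESC. Day 6 was the highest and the pluripotent lines the lowest. Exons 3 and 4 of Fosl1 lie on Ccdc85b, a gene of the other strand, and exons 1 and 2 lie on no other gene. Over those free exons Fosl1 stood at 3.25 RPKM in MEF, at 7.42 in day 6 cells, at 1.64 and 0.562 in Tomato-positive and Tomato-negative OSKM NSC, at 0.0528 in brain NSC, at 0.385 in iPSC and at 0.185 in ESC. Day 6 was again highest, at 239 reads against 103 in MEF, while the NSC levels were a smaller share of the MEF level than over all exons, with 22 and 17 reads in the OSKM NSC libraries and 1 read in brain NSC. Ccdc85b itself ranged between 0.961 RPKM in ESC and 21.3 RPKM in Tomato-positive OSKM NSC, and its part in the Fosl1 level was not tested.

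Atf3 was highest on day 6 and Egr1 in brain NSC. Atf3 (ENSMUSG00000026628, chr1:191170296-191218039, minus strand), a stress-induced factor that can pair with Jun and often represses, stood at 13.3 RPKM in MEF, at 19.6 in day 6 cells, at 2.20 and 3.78 in Tomato-positive and Tomato-negative OSKM NSC, at 2.58 in brain NSC, at 8.63 in iPSC and at 5.75 in ESC. Day 6 and MEF were the highest and within 1.5-fold of each other, and the 3 NSC libraries were the lowest. Egr1 (ENSMUSG00000038418, chr18:34859823-34864984, plus strand), which recruits its own corepressors Nab1 and Nab2, stood at 70.5 RPKM in MEF, at 72.1 in day 6 cells, at 25.1 and 64.9 in Tomato-positive and Tomato-negative OSKM NSC, at 134 in brain NSC, at 0.725 in iPSC and at 0.551 in ESC. Both pluripotent lines were below 1 RPKM while the other 5 libraries were at 25.1 or more, and the 243-fold span was the widest of the 9 members. Its longest exon held 152 reads in iPSC and 82 in ESC, against 1652 to 12774 reads in the other libraries.

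**Figure D1:**
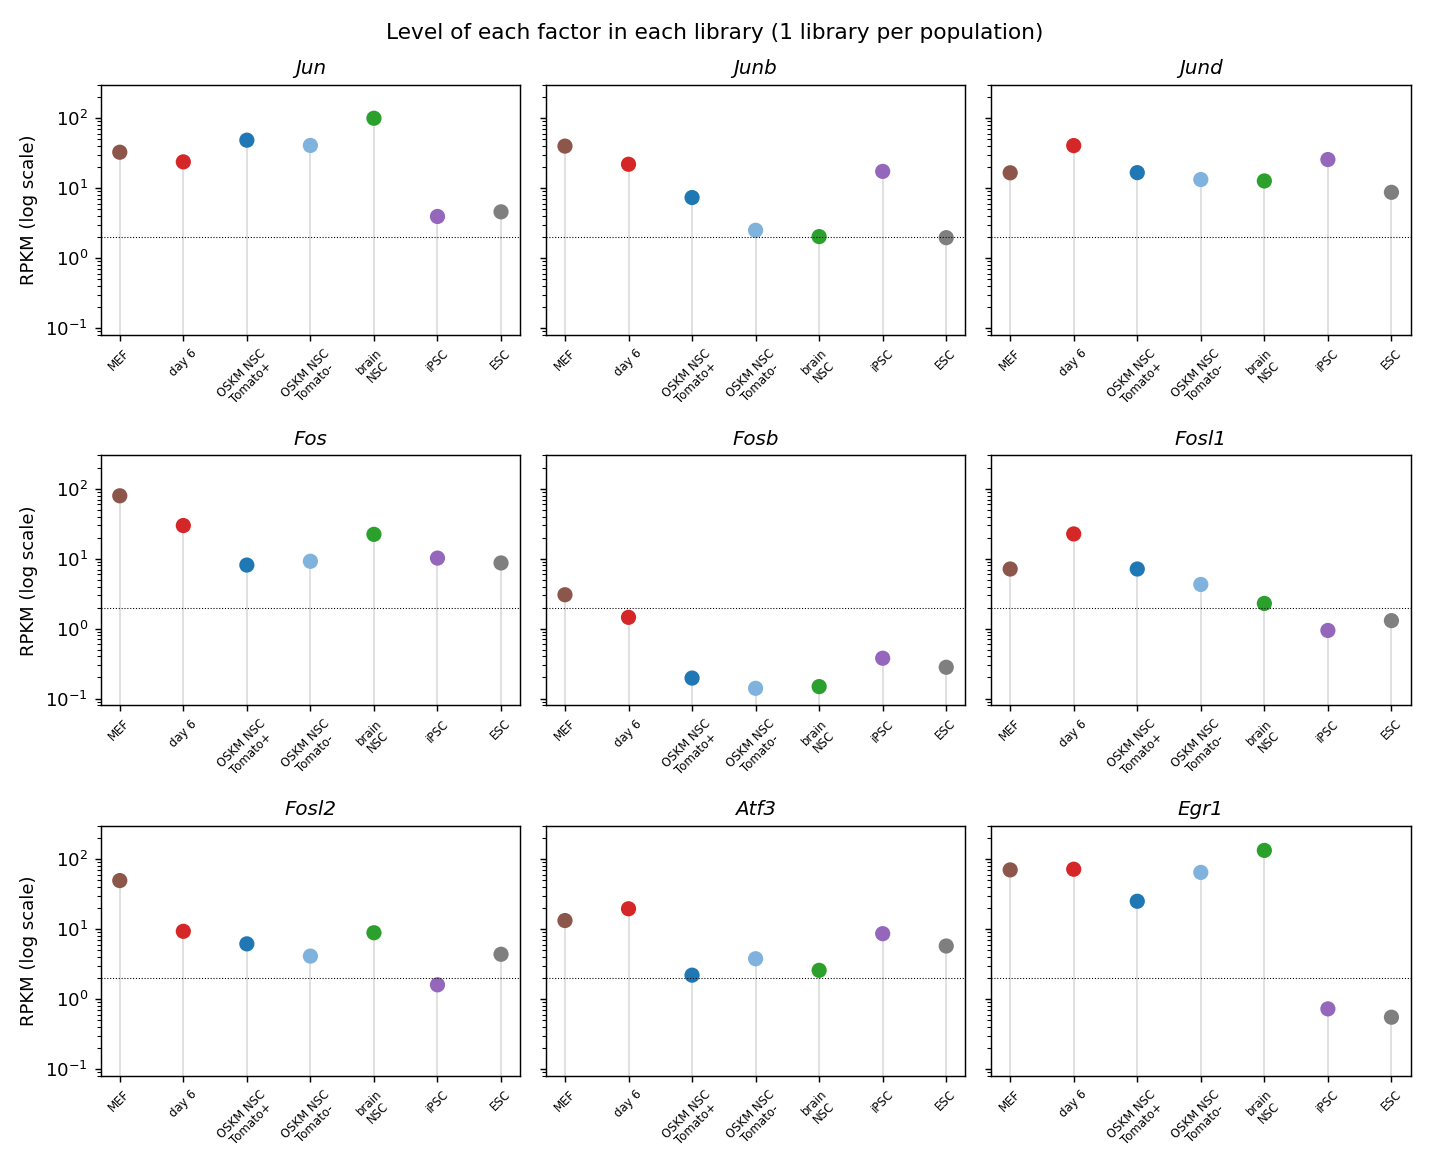
Level of each of the 9 factors in RPKM (log axis) in each of the 7 libraries, with 1 point per library and a dotted line at 2 RPKM. Jun and Egr1 are highest in brain NSC and lowest in iPSC and ESC, Fos and Fosl2 are highest in MEF, and Fosl1 and Jund are highest on day 6.

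Summed levels show how the make-up of the pool changed. The Jun family summed to 89.2 RPKM in MEF, to 86.5 in day 6 cells, to 72.7 and 56.7 in Tomato-positive and Tomato-negative OSKM NSC, to 115 in brain NSC, to 47.0 in iPSC and to 15.3 in ESC. The sums of MEF and day 6 were alike, but Jund made up 47.1% of the sum on day 6 against 18.6% in MEF, and Junb 25.5% against 44.8%. Jun made up 66.9%, 72.1% and 87.2% of the sum in Tomato-positive, Tomato-negative and brain NSC, against 36.6% in MEF and 8.38% in iPSC. The Fos family summed to 139 RPKM in MEF, to 63.1 in day 6 cells, to 21.6 and 17.7 in Tomato-positive and Tomato-negative OSKM NSC, to 33.7 in brain NSC, to 13.1 in iPSC and to 14.7 in ESC. Fosl1 made up 35.7% of that sum on day 6 against 5.11% in MEF, and Fosl2 14.8% against 35.6%. In both OSKM NSC libraries Fosl1 was also a larger share, at 33.0% and 24.1%, than in brain NSC, at 6.79%, where Fos made up 66.3%. The ratio of the Jun sum to the Fos sum was 0.641 in MEF, 1.37 in day 6 cells, 3.36 and 3.20 in Tomato-positive and Tomato-negative OSKM NSC, 3.41 for brain NSC, 3.59 for iPSC and 1.04 for ESC. By these sums the Fos family stood above the Jun family in MEF alone, but the order in day 6 cells and ESC turned with the exons used. From the highest exon of each gene, the Fos and Jun families summed to 165 and 86.5 RPKM in day 6 cells and to 29.4 and 15.3 RPKM in ESC. With exons shared with another gene left out, which drops Jund, they summed to 48.0 and 45.8 RPKM in day 6 cells and to 13.5 and 6.55 RPKM in ESC. Each Jun gene has 1 measured exon, so taking the highest exon can raise only the Fos sum. The other setting takes Jund out of the Jun sum, so neither setting decides the order. The Fosl1 and Jund values in these sums carry the limits of overlap given above.

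**Figure D2:**
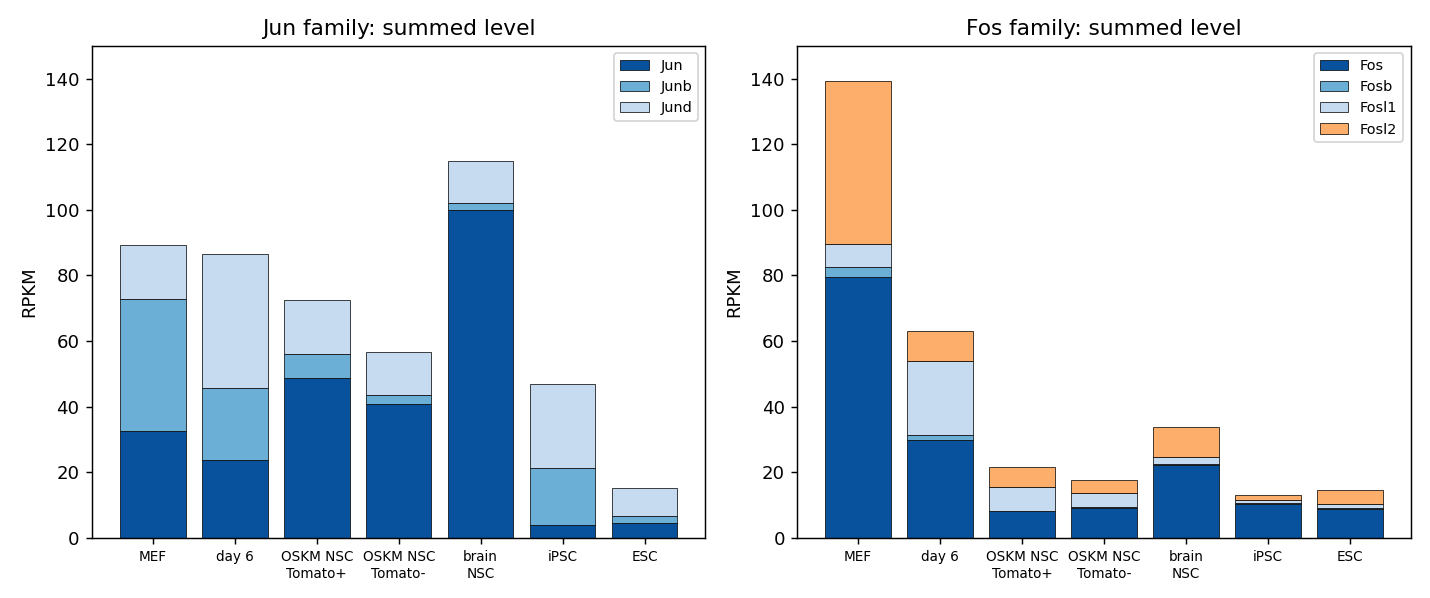
Summed RPKM of the Jun family (left) and the Fos family (right) in each library, with 1 stacked bar per library and 1 colour per gene. The Jun sum is largest in brain NSC, at 115 RPKM, where Jun fills most of the bar, and the Fos sum is largest in MEF, at 139 RPKM, where Fos and Fosl2 fill most of it.

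The exons of a member did not share a level, and their order was alike in most libraries. In Fos, exon 3 stood at 164 RPKM in MEF, at 83.7 in day 6 cells, at 17.5 and 15.4 in Tomato-positive and Tomato-negative OSKM NSC, at 47.7 in brain NSC, at 19.3 in iPSC and at 20.3 in ESC. Its exon 1 stood at 63.8 RPKM in MEF, at 15.5 in day 6 cells, at 7.96 and 7.53 in Tomato-positive and Tomato-negative OSKM NSC, at 13.9 in brain NSC, at 5.81 in iPSC and at 1.68 in ESC. Exon 3, printed above for the Fos family, was the highest exon in all 7 libraries for Fos, Fosl2 and Atf3 and in 5 of 7 for Fosb and Fosl1. For Fos it was 1.79 to 3.07 times the last exon. For Fosl2 it was 2.49 to 4.77 times the last exon in the other libraries and 1.05 times in ESC, and for Atf3 it was 1.46 to 3.82 times. In Fosl2, exon 1 stood at 0.146 RPKM (6 reads) in ESC, where the last exon stood at 5.14 RPKM, whereas in MEF they stood at 15.9 and 50.9 RPKM. Atf3 exon 1 was low in all libraries, at 0 to 3.16 RPKM. Egr1 had most of its reads in the last exon, which stood at 99.1 RPKM in MEF, at 99.3 in day 6 cells, at 34.5 and 89.7 in Tomato-positive and Tomato-negative OSKM NSC, at 188 in brain NSC, at 1.04 in iPSC and at 0.794 in ESC, while exon 1 stood at 0.0373 to 15.9 RPKM. A form of that last exon with 2492 bases is listed with the same reads, and both forms enter the Egr1 level. Exon 1, of 1964 bases, contains a listed exon of 417 bases that held 691 of its 695 reads in MEF. The shorter exon stood at 36.8 RPKM in MEF and at 74.8 RPKM in brain NSC. An annotated internal Egr1 exon of 127 bases inside exon 1 held 93 reads on day 6 and 0 to 4 reads in the other 6 libraries, an observation chosen after its values were seen. An exon of 108 bases is short, and how reads across exon junctions were counted is not given in the sources used here.

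**Figure D3:**
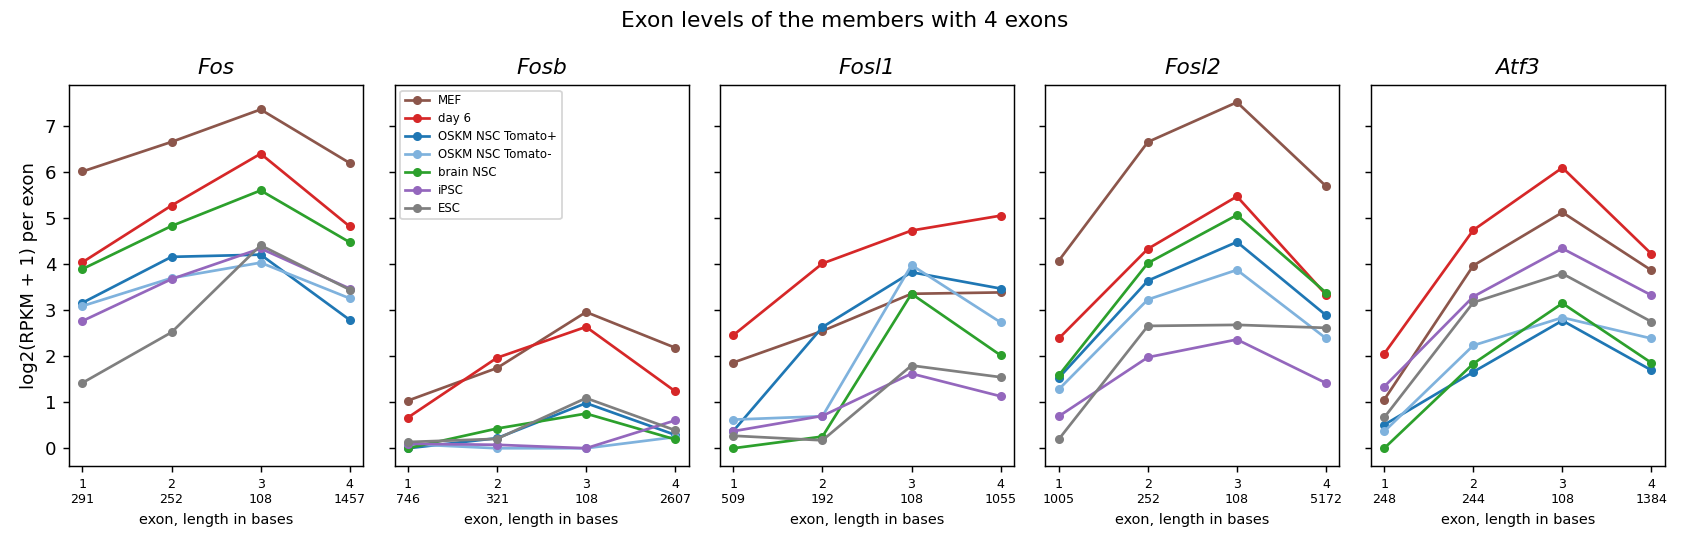
Level of each exon, as log2(RPKM + 1), of the 5 members with 4 exons, in order along the transcript with the exon length in bases under each number and 1 line per library. Exon 3 is the peak in all lines of Fos, Fosl2 and Atf3, and exon 1 is the lowest exon in most lines.

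The comparisons below count a member as higher or lower at 2-fold, as log2((a + 1)/(b + 1)) of at least 1 either way in RPKM, where it reached 2 RPKM in a library compared. Where a side has 2 libraries, each pair had to pass in the same direction, and the smaller ratio is given. Intervals are 95% exact intervals of the ratio of reads in the longest exon and cover counting error only. The 4 comparisons against MEF share that library, and 3 comparisons share the day 6 library.

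Day 6 cells against MEF asked how the factors stood early in the conversion. Fosl1 was higher on day 6, at 22.6 RPKM against 7.12 RPKM in MEF (3.17-fold, interval 3.07 to 3.80), and Jund at 40.7 against 16.6 RPKM (2.46-fold, 2.30 to 2.63). Fos was lower, at 29.8 RPKM on day 6 against 79.4 RPKM in MEF (2.66-fold lower), and Fosl2 at 9.33 against 49.6 RPKM (5.32-fold lower). Egr1 was level, at a ratio of 1.02 (interval 0.976 to 1.03), and Jun, Junb, Fosb and Atf3 moved by less than 2-fold on that scale. Thus 2 of 9 members were higher and 2 lower, where 22.4% of 16154 genes were higher and 31.2% lower, and the median log2 ratio was -0.44 over the members and -0.13 over all genes tested. Both higher genes have shared exons. Over its free exons Fosl1 had a log2 ratio of 0.99, just under 2-fold, and outside the stretch shared with Gm11175 Jund stood at 30.2 RPKM on day 6 against 13.9 RPKM in MEF (2.17-fold, interval 1.98 to 2.37). The fibroblast markers summed to 129 RPKM on day 6 against 27269 RPKM in MEF, with 8 and 11 of 11 at 2 RPKM, and the myeloid markers to 31.5 against 3544 RPKM, with 1 and 10 of 10. Ptprc, Tyrobp and Fcer1g stood at 0 on day 6. Among marker sums that rose, epithelial markers stood at 1262 RPKM on day 6 against 41.5 RPKM in MEF. Keratinocyte markers summed to 409.7 against 31.3 RPKM, of which Krt14 held 391 and 25.8 RPKM. Pluripotency markers summed to 209 against 3.61 RPKM. The part of changed cell types in the lower Fos and Fosl2 or the higher Fosl1 and Jund levels was not tested.

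OSKM NSC against day 6 cells compared the end of the conversion with an early stage of it. Both OSKM NSC libraries were lower for 5 of 8 members tested and higher for none. Atf3 stood at 2.20 and 3.78 RPKM in Tomato-positive and Tomato-negative OSKM NSC against 19.6 RPKM on day 6 (log2 ratio -2.11), and Fos at 8.11 and 9.19 against 29.8 RPKM (-1.60). Fosl1 (-1.54), Junb (-1.46) and Jund (-1.24) were also lower. Jun was the exception in direction, at 48.6 and 40.9 RPKM in OSKM NSC against 23.8 RPKM on day 6, ratios of 2.05 (interval 1.95 to 2.15) and 1.72 (1.65 to 1.8), the second under 2-fold. Among 16319 genes, 24.4% were higher and 11.2% lower, and the median log2 ratio was -1.24 over all 9 members and 0.24 over all genes tested. Marker sums moved in both directions. Epithelial markers were lower, at 98.8 and 8.67 RPKM summed in OSKM NSC against 1262 RPKM on day 6, with 4, 3 and 4 of 4 at 2 RPKM and none at 0. Neural stem cell markers were higher, at 7755 and 11771 RPKM against 43.8 RPKM on day 6. Fibroblast markers summed to 1966 and 139 RPKM in Tomato-positive and Tomato-negative OSKM NSC against 129 RPKM on day 6. The part of these markers was not tested.

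Against MEF, both OSKM NSC libraries were lower for Junb, Fos, Fosb, Fosl2 and Atf3 and higher for none of the 9 members. Fos stood at 8.11 and 9.19 RPKM in Tomato-positive and Tomato-negative OSKM NSC against 79.4 RPKM in MEF (log2 ratio -2.98), Fosl2 at 6.17 and 4.12 against 49.6 RPKM (-2.82), and Junb at 7.35 and 2.50 against 40.0 RPKM (-2.29). Jun stayed close, at ratios of 1.49 (interval 1.42 to 1.56) and 1.25 (1.21 to 1.30), and Jund at 1.01 (0.909 to 1.12) and 0.805 (0.738 to 0.876). Of 16630 genes, 17.8% were higher and 15.4% lower, with a median log2 ratio of -1.58 over the members and 0.17 over all genes. Brain NSC against MEF gave lower values for Junb (-3.76), Fosl2 (-2.35), Atf3 (-2.00), Fosb (-1.82), Fos (-1.78) and Fosl1 (-1.30), 6 of 9 members, and a higher value for Jun (3.06-fold, interval 2.96 to 3.18). There 21.7% of 16253 genes were higher and 22.2% lower, with medians of -1.78 over the members and 0.14 over all genes. In both comparisons Fos, Fosl2, Junb, Fosb and Atf3 were below MEF, with the MEF library in common. The fibroblast sum was 1966 and 139 RPKM in Tomato-positive and Tomato-negative OSKM NSC and 27.7 RPKM in brain NSC against 27269 RPKM in MEF, with 11, 10, 2 and 11 of 11 markers at 2 RPKM. No fibroblast marker was at 0, and their part in these values was not tested.

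OSKM NSC against brain NSC asked how far cells made by conversion matched cells from the brain. Both OSKM NSC libraries were lower for 3 of 8 members tested and higher for none. Jun stood at 48.6 and 40.9 RPKM in Tomato-positive and Tomato-negative OSKM NSC against 100.1 RPKM in brain NSC (log2 ratio -1.03), Fos at 8.11 and 9.19 against 22.3 RPKM (-1.19) and Egr1 at 25.1 and 64.9 against 134 RPKM (-1.04). All 3 lay just past 2-fold in the nearer pair and further apart in the other. Of 15739 genes, 8.16% were higher and 5.08% lower, and the medians were -0.16 over the members and 0.07 over all genes. With a pseudocount of 4 RPKM in place of 1, only 1 of the 3 stayed past 2-fold. With the Tomato-negative library left out, 5 members passed: Junb was higher in Tomato-positive OSKM NSC than in brain NSC at 7.35 against 2.03 RPKM and Fosl1 at 7.12 against 2.29 RPKM, and 3 were lower.

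Tomato-positive and Tomato-negative OSKM NSC share strain and transgenes and differ in the Nanog-driven label. Junb was higher in Tomato-positive cells, at 7.35 against 2.50 RPKM in Tomato-negative cells (2.94-fold, interval 2.43 to 3.57), and Egr1 was lower, at 25.1 against 64.9 RPKM (2.59-fold lower). The other 6 members tested lay within 2-fold, with Jun at 1.19-fold and Jund at 1.25-fold. Of 15323 genes, 9.77% were higher and 5.50% lower, so 1 of 8 either way is near the background, and the medians were 0.24 over the members and 0.19 over all genes. Fibroblast markers summed to 1966 RPKM in Tomato-positive against 139 RPKM in Tomato-negative cells, keratinocyte markers to 114 against 1.89 RPKM and epithelial markers to 98.8 against 8.67 RPKM. Of these, 11, 2 and 4 markers reached 2 RPKM in Tomato-positive cells and 10, 0 and 3 in Tomato-negative cells, where Krt5 was at 0. Their part in the Junb and Egr1 values was not tested.

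Day 6 cells had been labelled through Nanog, and their factors were set against the pluripotent lines. They were higher than both iPSC and ESC for 5 of 8 members tested and lower for none, where 9.20% of 16503 genes were higher and 19.1% lower. Egr1 stood at 72.1 RPKM on day 6 against 0.725 RPKM in iPSC and 0.551 RPKM in ESC, 99.5-fold (interval 81.4 to 113) and 131-fold (101 to 157) higher. Fosl1 was 24.0-fold and 17.3-fold higher than in iPSC and ESC, and Jun 6.03-fold and 5.18-fold. Fos (log2 ratio 1.46) and Atf3 (1.10) were higher by less. Junb was 11.2-fold higher on day 6 than in ESC and 1.27-fold higher than in iPSC. Jund was 4.66-fold higher than in ESC and 1.59-fold higher than in iPSC over its whole exon. Outside the stretch shared with Gm11175 it was 2.39-fold higher than in ESC (interval 2.17 to 2.63) and 2.29-fold higher than in iPSC (2.10 to 2.49), which would make 6 of 8 members higher. The median log2 ratio was 1.10 over the 9 members and -0.16 over all genes. Pluripotency markers summed to 209 RPKM on day 6 against 5081 RPKM in iPSC and 7682 RPKM in ESC, with all 7 at 2 RPKM in each.

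Against MEF, iPSC and ESC were lower for 7 of 9 members, all but Jund and Atf3, and higher for none, where 20.5% of 17239 genes were higher and 18.9% lower. Egr1 stood at 0.725 RPKM in iPSC and 0.551 RPKM in ESC against 70.5 RPKM in MEF (log2 ratio -5.37), Fosl2 at 1.60 and 4.38 against 49.6 RPKM (-3.23), Fos at 10.2 and 8.69 against 79.4 RPKM (-2.85) and Jun at 3.94 and 4.59 against 32.7 RPKM (-2.59). The medians were -1.82 over the members and 0.09 over all genes. ESC, which were grown on feeders, held fibroblast markers at 0.146 times the MEF sum and iPSC at 0.00282 times, and the part of fibroblast RNA in these values was not tested. The iPSC and ESC libraries, both pluripotent, differed for Junb, at 17.4 RPKM in iPSC against 1.96 RPKM in ESC (8.86-fold, interval 7.45 to 10.5), and for Jund over its whole exon, at 25.7 against 8.73 RPKM (2.94-fold, 2.69 to 3.22). Outside the stretch shared with Gm11175, Jund stood at 13.2 RPKM in iPSC against 12.6 RPKM in ESC, a ratio of 1.04 (interval 0.939 to 1.16), and the call was lost. Fosl2 was lower, at 1.60 RPKM in iPSC against 4.38 RPKM in ESC (log2 ratio -1.05), just past 2-fold. It was no longer counted with a pseudocount of 4, a floor of 8 RPKM, either rescaling, the highest exon or GC centring. At the main settings 2 of 6 members tested were thus higher and 1 lower, where 7.74% of 15749 genes were higher and 14.5% lower. The medians were 0.15 over the 9 members and -0.18 over all genes. Fibroblast markers summed to 76.8 RPKM in iPSC against 3987 RPKM in ESC, with 6 and 11 of 11 at 2 RPKM and none at 0. Genes of the highest GC decile, which holds Junb and Jund, had a median log2 ratio of 0.38 for iPSC against ESC, and those of the lowest decile -0.30. Less that decile median, a step chosen after seeing the data, the log2 ratio of Junb went from 2.63 to 2.26. That of Jund over its whole exon went from 1.46 to 1.08. The part of fibroblast RNA or of GC content in these values was not tested.

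**Figure D4:**
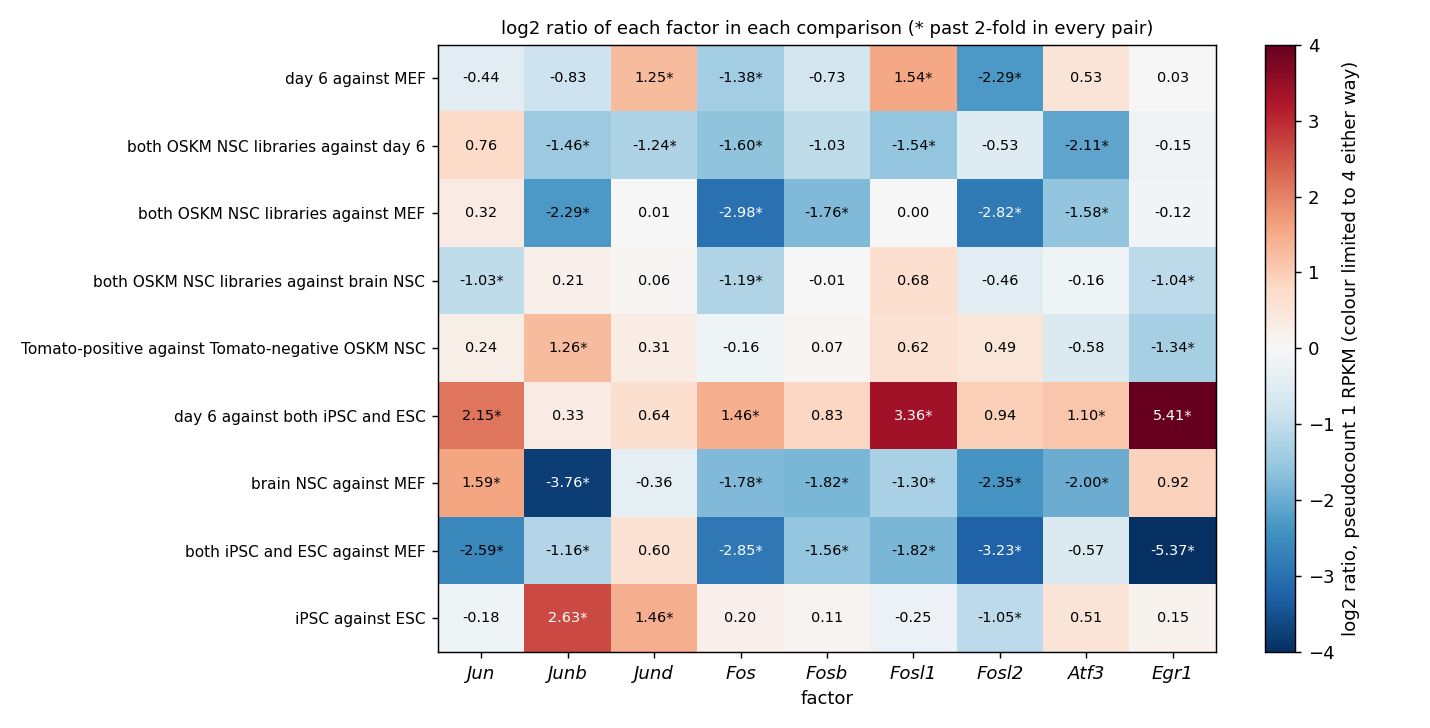
Log2 ratio, with a pseudocount of 1 RPKM, of each factor (columns) in each comparison (rows, first named population over the second), the smaller of the pairs where a side has 2 libraries; red is higher in the first named, blue lower, and an asterisk marks a factor past 2-fold in every pair and at 2 RPKM in a library. Fos and Fosl2 are blue in all 4 rows against MEF, whereas Jun is red for brain NSC and Egr1 is darkest where day 6 or MEF meets iPSC and ESC.

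The neighbours of AP-1 in the pathway were described by lists taken from textbook knowledge, all of whose 105 genes were measured. On day 6, textbook AP-1 target genes were mostly lower than in MEF: 9 of 13 tested were lower and 1 higher, where 31.2% and 22.4% of all genes were, and their median log2 ratio was -3.04 against -0.13 over all genes. Plau, the urokinase protease, stood at 0.872 RPKM on day 6 against 205 RPKM in MEF, and Spp1, the matrix protein osteopontin, at 22.1 against 3035 RPKM. The collagenase gene Mmp13 was listed at 0 on day 6 against 39.1 RPKM in MEF. Plaur, the urokinase receptor, stayed at 43.1 against 48.7 RPKM, and Ccnd1 stood at 209.5 against 66.0 RPKM. In brain NSC, 12 of 13 targets were lower than in MEF and 1 was higher, where 22.2% and 21.7% of all genes were, with a median of -4.14 against 0.14 over all genes. Ccnd1, which encodes cyclin D1, stood above MEF, at 416 RPKM in brain NSC against 66.0 RPKM in MEF. In both OSKM NSC libraries 7 of 14 were lower than in MEF and 1 higher, where 15.4% and 17.8% of all genes were, and in both iPSC and ESC 7 of 14 were lower and none higher, where 18.9% and 20.5% were. These genes are also made by fibroblasts, whose marker sums are given above for the same comparisons.

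Between the OSKM NSC libraries most of the targets differed. In Tomato-positive against Tomato-negative cells, 11 of 13 targets were higher and 1 lower, where 9.77% and 5.50% of all genes were, with a median log2 ratio of 2.64, whereas the 9 factors had a median of 0.24 and all genes 0.19. Spp1 stood at 1985 RPKM in Tomato-positive against 86.6 RPKM in Tomato-negative cells, Plaur at 25.9 against 0.582 RPKM, Timp1, an inhibitor of matrix proteases, at 169 against 13.1 RPKM and Tgfb1 at 13 against 0.733 RPKM. Fibroblast, keratinocyte and epithelial marker sums were higher in the same library, as given above. In iPSC against ESC, 9 of 13 targets were lower and none higher, where 14.5% and 7.74% of all genes were (median -2.09, against -0.18 over all genes), among them the stromelysin Mmp3, at 0.297 RPKM in iPSC against 297 RPKM in ESC, beside the lower fibroblast sum. In OSKM NSC against brain NSC 2 of 13 targets were higher and none lower, a count near the 8.16% and 5.08% of all genes, namely Spp1 (1985 and 86.6 against 1.68 RPKM) and Plau (39.1 and 7.06 against 0.284 RPKM). On day 6, 3 of 13 were higher and 3 lower than in both iPSC and ESC, where 9.20% and 19.1% of all genes were. Both OSKM NSC libraries had 3 of 13 higher and 1 lower than day 6, near the 24.4% and 11.2% of all genes.

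**Figure D5:**
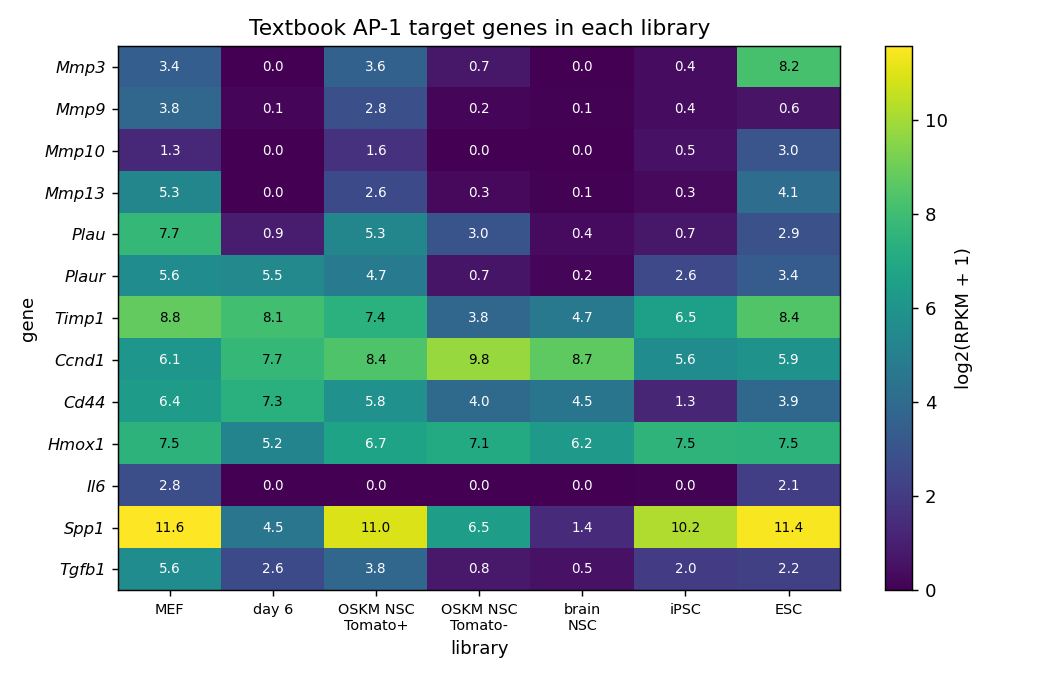
Level of 13 textbook AP-1 target genes (rows), as log2(RPKM + 1), in each of the 7 libraries (columns), with the value printed in each cell. Most targets are brighter in MEF, Tomato-positive OSKM NSC and ESC than in brain NSC, while Ccnd1 is brightest in Tomato-negative OSKM NSC.

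Other immediate early genes were counted in the same way. Of other immediate early effectors, 11 of 20 were lower and 2 higher on day 6 than in MEF, where 31.2% and 22.4% of all genes were (median log2 ratio -2.16), with Ccn1, a matricellular protein, at 100 RPKM on day 6 against 998 RPKM in MEF, Ccn2 at 15.8 against 380.5 RPKM, and the growth arrest gene Gadd45g at 4.79 against 156 RPKM. Of other immediate early transcription factors, 5 of 11 were lower and 2 higher (median -0.58). Ier3 stood at 6.48 RPKM on day 6 against 125 RPKM in MEF, whereas the nuclear receptor Nr4a1 stood at 72.5 against 26.8 RPKM. In OSKM NSC against day 6, 7 of 20 effectors were higher and 2 lower and 5 of 12 factors were higher and 1 lower, where 24.4% of all genes were higher and 11.2% lower, so the effectors were near the background. Egr3, a relative of Egr1, stood at 4.50 and 3.66 RPKM in Tomato-positive and Tomato-negative OSKM NSC against 0.204 RPKM on day 6. In iPSC and ESC against MEF, 9 of 19 effectors were lower and 2 higher, and 6 of 11 factors were lower and none higher, where 18.9% of all genes were lower and 20.5% higher. Egr2 stood at 0.0972 and 0.0978 RPKM in iPSC and ESC against 4.23 RPKM in MEF, low in the same lines as Egr1, whereas the kinase gene Sgk1 was higher, at 202 and 226 against 13.3 RPKM.

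Genes that act on the members were counted against the same background, which for day 6 against MEF was 22.4% of all genes higher and 31.2% lower. Nab2, the corepressor of Egr1, stood at 12.3 RPKM on day 6 against 78.6 RPKM in MEF although Egr1 itself was level, and at 68.1 and 75.1 RPKM in Tomato-positive and Tomato-negative OSKM NSC. Of 6 regulators of Jun and Egr1, 1 was higher and 1 lower on day 6 than in MEF, and 2 were lower in both iPSC and ESC, where 18.9% of all genes were, Nab1 and Nab2. The MAP kinase phosphatases end the signal that induces these factors. Dusp6, which acts on ERK, stood at 200.4 and 259 RPKM in Tomato-positive and Tomato-negative OSKM NSC and 160.0 RPKM in brain NSC against 40.3 RPKM in MEF, and at 34.6 RPKM on day 6. Dusp4 and Dusp5, which are ERK-induced, stood at 29.7 and 16.6 RPKM on day 6 against 1.55 and 3.65 RPKM in iPSC and 3.22 and 2.69 RPKM in ESC, so 2 of 5 phosphatases were higher on day 6 and none lower, where 9.20% and 19.1% of all genes were. All 21 kinases and serum response factors upstream reached 2 RPKM in each library, and on day 6 against MEF 3 were higher and 4 lower (median -0.08), smaller shares than over all genes. Elk4, a partner of serum response factor, stood at 15.8 RPKM on day 6 against 2.96 RPKM in MEF, and its relative Elk3 at 15.9 against 55.5 RPKM. Of the other bZIP partners, 5 of 10 were lower on day 6 than in MEF and none higher. Batf, a partner of Jun proteins in immune cells, was listed at 0 on day 6 against 8.89 RPKM in MEF, and Maf stood at 0.0658 against 19.5 RPKM, beside the myeloid sum of 31.5 against 3544 RPKM.

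The genes whose pattern over the 7 libraries was most like that of a member were ranked by Pearson r of log2(RPKM + 1) among 6790 protein-coding genes that reached 8 RPKM and varied by at least 2 log2 units. The points share their libraries, depth and base composition, and the values are descriptions with no test. For Jun, 55 genes had an r of 0.95 or more, led by Zcchc18 (0.987) and Mvb12b (0.984). Mvb12b stood at 15.2 RPKM in MEF, at 12.2 in day 6 cells, at 31.7 and 36.4 in Tomato-positive and Tomato-negative OSKM NSC, at 56.3 in brain NSC, at 1.72 in iPSC and at 2.86 in ESC. For Egr1 there were 19, led by Dpysl2 (0.986), a protein of growing neurites, and Kif1c (0.982). No gene reached 0.95 with Junb, for which Myo1g (0.913) was nearest. Fos was nearest to Ak5 (0.963) and Tnfaip3 (0.956), an inhibitor of NF-kappaB signalling, and Fosl2 to Disp1 (0.975) and the Hippo kinase gene Lats2 (0.966). Fosb was nearest to Aqp5 (0.996) and the smooth muscle actin gene Actg2 (0.995), Fosl1 to Slc2a6 (0.988), Jund to Rpl38 (0.984) and Foxp4 (0.980), and Atf3 to Myl4 (0.960). Fosb stood at 3.05 RPKM in MEF, at 1.45 on day 6 and at 0.140 to 0.377 elsewhere. Its r thus rests mostly on MEF and day 6. Every r of Jund used its whole exon, at 25.7 RPKM in iPSC and 8.73 RPKM in ESC. Outside the stretch shared with Gm11175 these levels were 13.2 and 12.6 RPKM, and r was not computed there. Over the 36 pairs of members, r was highest for Jun with Egr1 (0.92), Fos with Fosl2 (0.90) and Fos with Fosb (0.89), and lowest for Jun with Atf3 (-0.40). Jun with Junb (-0.15) and Jun with Jund (-0.07) were near 0.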

How the data were processed

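Poly(A) RNA-seq of 7 mouse libraries was used, 1 per population. The authors deposited RPKM values per Ensembl exon. Per the submitters' processing notes, CASAVA 1.8.2, Bowtie, TopHat2 2.0.10, bedtools and mm10 were used, with no role given. The counting rule and use of strand are not given in the sources used here. Of 279252 exons, 270168 (96.7%) matched GENCODE M21 by exon ID and 9084 were left out. Exons sharing a base with another gene (6724) were kept. Gene levels are exon-length-weighted means, for 29686 genes. RPKM times exon length gave whole reads, within 0.01 read, for 96.3% to 96.5% of values under 5000 reads. A value of 0 allows up to 3 reads. Ratios used a pseudocount of 1 RPKM and counts a floor of 2 RPKM and a 2-fold threshold. With 1 library per group there is no test or p-value. Intervals are exact (Clopper-Pearson) from scipy 1.17.1, printed where they contain the ratio of gene levels. Named genes are the 9 members, the 3 genes most like each member (Gm and Rik models left out; 1 to 3 are printed) and up to 4 genes of each list with the largest ratio. Plaur, Ccnd1, Ccn1, Nr4a1, Hspa1a and Hspa1b against MEF, and Dusp6 and Egr3 in some libraries, lie outside those ranks and were chosen after their values were seen. The members and lists were chosen with earlier results of these data known. Lists were other bZIP partners, immediate early transcription factors and effectors, MAP kinase phosphatases, upstream kinases, Jun and Egr1 regulators, AP-1 targets, and heat shock genes, with markers of 9 cell types. Scripts (Python 3.11.15, pandas 2.3.3, numpy 2.4.6) were tested on simulated data. Alternatives are given in the closing section. A gene that the naming rule selects is not reported here.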

Additional observations from a re-analysis of the deposited data

How the results depend on the processing

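No ratio of a member changed sign past 2-fold under any alternative run. Of 78 ratios between single libraries past 2-fold, 78 stayed past it with a pseudocount of 0.25, 61 with 4, 75 after scaling to equal totals, 76 after median-of-ratios scaling and 74 from the highest exon, and 72 of 73 with shared exons left out. At a 4-fold threshold the members counted were 1 for day 6 against MEF, 1 for both OSKM NSC against day 6, 3 for both OSKM NSC against MEF, 0 for both OSKM NSC against brain NSC, 0 for Tomato-positive against Tomato-negative OSKM NSC, 3 for day 6 against both iPSC and ESC, 3 for brain NSC against MEF, 4 for both iPSC and ESC against MEF and 1 for iPSC against ESC. With shared exons left out, 2 members were counted for day 6 against MEF (4 with them), as Jund dropped out and Fosl1 missed the threshold. For both OSKM NSC against brain NSC, a pseudocount of 4 gave 1 and the Tomato-positive library alone 5, against 3. For Tomato-positive against Tomato-negative OSKM NSC, a pseudocount of 4 gave 1 and a floor of 8 RPKM 1, against 2. The cause was not tested.

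With Jund measured outside the stretch shared with Gm11175, chosen after seeing the data, 6 members were counted for day 6 against both iPSC and ESC (5 with it) and 2 for iPSC against ESC (3 with it), and the other 7 counts did not change. With shared exons left out, which drops Jund, the Jun family summed to 72.6 RPKM in MEF, to 45.8 in day 6 cells, to 56.0 and 43.4 in Tomato-positive and Tomato-negative OSKM NSC, to 102 in brain NSC, to 21.3 in iPSC and to 6.55 in ESC. The Fos family sum was then 48.0 RPKM on day 6, 16.1 RPKM in Tomato-positive and 14.0 RPKM in Tomato-negative OSKM NSC, 31.4 RPKM in brain NSC and 13.5 RPKM in ESC. From the highest exon of each gene the Fos family summed to 363 RPKM in MEF, to 165 in day 6 cells, to 53.1 and 44.1 in Tomato-positive and Tomato-negative OSKM NSC, to 90.2 in brain NSC, to 26.1 in iPSC and to 29.4 in ESC. Under both settings the Fos sum was above the Jun sum in day 6 cells and ESC, which turns the order there. Neither setting decides that order, because each Jun gene has 1 measured exon and leaving out shared exons drops Jund. Centring ratios on genes of like GC content, chosen after seeing the data, moved each count of members by at most 1.5-fold: 4, 5, 5, 3, 2, 7, 8, 7 and 2 members in the order of comparisons above. Median-of-ratios scaling shifted libraries by -0.29 to 0.25 on the log2 scale. No paired analysis was possible because each group has 1 library. Depth limits Fosb, with 10 to 79 reads in its longest exon outside MEF and day 6.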

Other observations

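Heat shock and chaperone genes share stress signals with Atf3 and Jun. On day 6, 6 of 11 were higher and none lower than in MEF, with a median log2 ratio of 1.34, where 22.4% of all genes were higher and 31.2% lower. Hsp90aa1 stood at 1004 RPKM on day 6 against 131 RPKM in MEF, Hspa8, the constitutive Hsc70, at 2752 against 545 RPKM, and Hsph1 at 178 against 31.1 RPKM. The stress-inducible Hspa1a and Hspa1b, close paralogs between which the split of reads is uncertain, stood at 6.79 and 9 RPKM on day 6 against 8.55 and 10.8 RPKM in MEF. In both iPSC and ESC, 7 of 11 were higher than in MEF and 2 lower, where 20.5% and 18.9% of all genes were, with Hsp90aa1 at 1201 and 2328 RPKM against 131 RPKM. Against day 6, both OSKM NSC libraries had 1 of 11 higher and 3 lower, where 24.4% and 11.2% of all genes were, and 5 of 8 members were lower. Hspb1, the small heat shock protein Hsp27, stood at 17.2 and 1.38 RPKM in Tomato-positive and Tomato-negative OSKM NSC and 0.808 RPKM in brain NSC against 131 RPKM on day 6. It was 413 RPKM in iPSC and 255 RPKM in ESC.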
